A study of Mus musculus with 18 samples.

Results

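The extracellular matrix and remodelling genes described here were a list of 43 mouse genes, made up of 14 collagens, 21 other matrix proteins and 8 proteases with their inhibitors. They were chosen by gene symbol, and a probe was taken as a member where its symbol in the deposited table was on the list and its signal was detected (detection p under 0.05) on at least 4 of the 18 arrays. In all, 64 of the 97 probes with a listed symbol passed, for 40 of the 43 genes, out of 21938 probes tested for 15646 symbols in the whole table. Col5a2 (a type V collagen chain), Postn (periostin, a matrix protein of injured tissue) and Lama4 (a laminin chain) had no probe that passed. On the edge of the detection rule, 1 Tnc probe was detected on 4 arrays with a mean log2 signal of 4.82, and 1 probe each of Col6a3 and Lama4 on 3 arrays with 4.76 and 4.75. Since the rule asks for 4 arrays of 18, a probe can pass through a group in which it is high, as the Mmp10 probe did through DSS arrays, and all counts below are over the probes that passed.

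The extracellular matrix is the protein scaffold around cells. Fibrillar collagens give it strength, type IV collagen and laminin form the basement membrane on which the gut epithelium sits, and proteoglycans, fibulins, fibronectin and tenascin tie these layers together and signal to cells. Matrix metalloproteinases cut these proteins and TIMPs inhibit the enzymes. In the colon most of these genes are known from fibroblasts, smooth muscle cells and endothelial cells below the epithelium, and in colitis matrix turnover is part of both tissue damage and repair.

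The study asked what the methyl-CpG-binding protein Mbd2 does in colon epithelium at rest and in colitis induced by dextran sulfate sodium (DSS), a polymer that injures the colon lining when given in drinking water. The 4 groups, each of n = 4 samples, were profiled on Illumina bead arrays: Naive_WT (wild type, no DSS), Naive_KO (labelled Mbd2KO, no DSS), DSS_WT (wild type, 2% DSS) and DSS_KO (labelled Mbd2KO, 2% DSS). Per the methods, Mbd2 was missing from the whole animal (Mbd2-/-) and not from epithelium alone, wild-type animals were littermates or co-housed, and the cells were sorted by flow cytometry as EpCAM+ CD45- CD3- F4/80-. By the series' design text each sample held between 1 and 5 mice. The methods, which cover several sorted cell types, give a wider range of pool sizes, replicates from separate experiments, and age- and sex-matched adult mice. The labels give no age and tie no sample to an experiment, so experiments could not be fitted as a batch. Nothing ties a sample to separate animals beyond its number, so p-values measure the spread between these samples.

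Signals are given as log2 values after background correction with negative-control beads and quantile normalisation, and a difference of 1 on this scale is a doubling. A probe "rose" or "fell" at an adjusted p under 0.05 in limma (Benjamini-Hochberg over all 21938 probes), and it was "called" under the study's stricter thresholds of an adjusted p under 0.01 and an absolute log2 difference of 1 or more. Where a gene had several tested probes, as 17 genes had, the values given are from its brightest probe on average. Between 18851 and 20618 probes were detected per array, and of the 64 member probes between 52 and 59 on the naive arrays and between 55 and 64 on the DSS arrays, the 55 being that of DSS_KO sample 7. DSS_WT sample 4 and DSS_KO sample 5 were each on 2 arrays and were averaged. The only Mbd2 probe was detected on 0 of 18 arrays, so it could not check the genotype labels.

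All 12 epithelial markers examined, among them Krt8 and Cdh1, were detected on all 18 arrays, and the log2 of their summed signal was 16.80 to 16.95 in Naive_WT, 16.91 to 17.01 in Naive_KO, 16.76 to 16.86 in DSS_WT and 16.79 to 16.94 in DSS_KO. The DSS_WT samples lay below the Naive_KO samples, and 1 of 16 epithelial probes, of Cdh1, fell with DSS in wild type (-0.37, adjusted p 0.0377). That count is near the share over all probes, of which 4.75% fell. Markers of other cells were also measured: 10 of 13 fibroblast, 10 of 12 smooth muscle, 12 of 12 endothelial and 9 of 12 macrophage and monocyte and 3 of 8 neutrophil markers had a tested probe. Fibroblast markers Foxf2 and Twist2, smooth muscle markers Cnn1 and Synpo2, the macrophage marker Itgam and the leukocyte markers Ptprc and Cd3e did not reach the detection rule. In sorted bulk samples such as these, fewer cells of a type and less RNA per cell cannot be told apart.

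Members of all 3 classes rose with DSS in wild-type samples. Of the 64 member probes, 41 probes of 29 genes rose and 21 probes of 16 genes were called higher, which is 64.1% and 32.8% of the members against a background of 5.71% and 1.34% of all probes. Only the collagen Col8a1 and Thbs1 (thrombospondin-1, a matricellular protein) fell, with 3 probes (4.69%, background 4.75%), and the 2 Col8a1 probes were called lower (3.12%, background 0.401%). The median log2 difference was 0.88 over the members and -0.01 over all probes. These counts include 4 probes detected on no Naive_WT array, without which 37 rose and 19 were called higher. In Mbd2KO samples, 14 probes of 9 genes rose with DSS and 8 probes of 6 genes were called higher, 21.9% and 12.5% of the members against 4.9% and 1.07% of all probes. In that genotype 0 member probes fell (background 4.52%) or were called lower (background 0.647%) by limma, and 2 probes, both of Col8a1, were lower at an unadjusted p under 0.05 (3.12%, background 12.4%). The median difference in Mbd2KO samples was 0.34, beside -0.02 over all probes, and without the probes detected on no Naive_KO array 11 rose and 6 were called higher.

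Over the 14 probes of the proteases and inhibitors the median log2 difference with DSS was 1.56 in wild type and 1.33 in Mbd2KO, and with 3 probes that no naive array detected placed at their lower bound it was 1.40 and 1.32. Those 3 probes, of Mmp10 and Mmp3, passed the detection filter only through DSS arrays, and over the other 11 probes the medians were 0.44 and 0.56. Called higher in wild type were Mmp2, Mmp3, Mmp10, Mmp13 and Timp1 with 7 of 14 probes, and 6 of 14 were called higher in Mbd2KO. Over the 11 probes detected on a naive array the counts were 5 and 4. Mmp14 (a membrane-bound metalloproteinase that activates Mmp2), Timp2 and Timp3 passed neither threshold with DSS in either genotype.

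**Figure D1:**
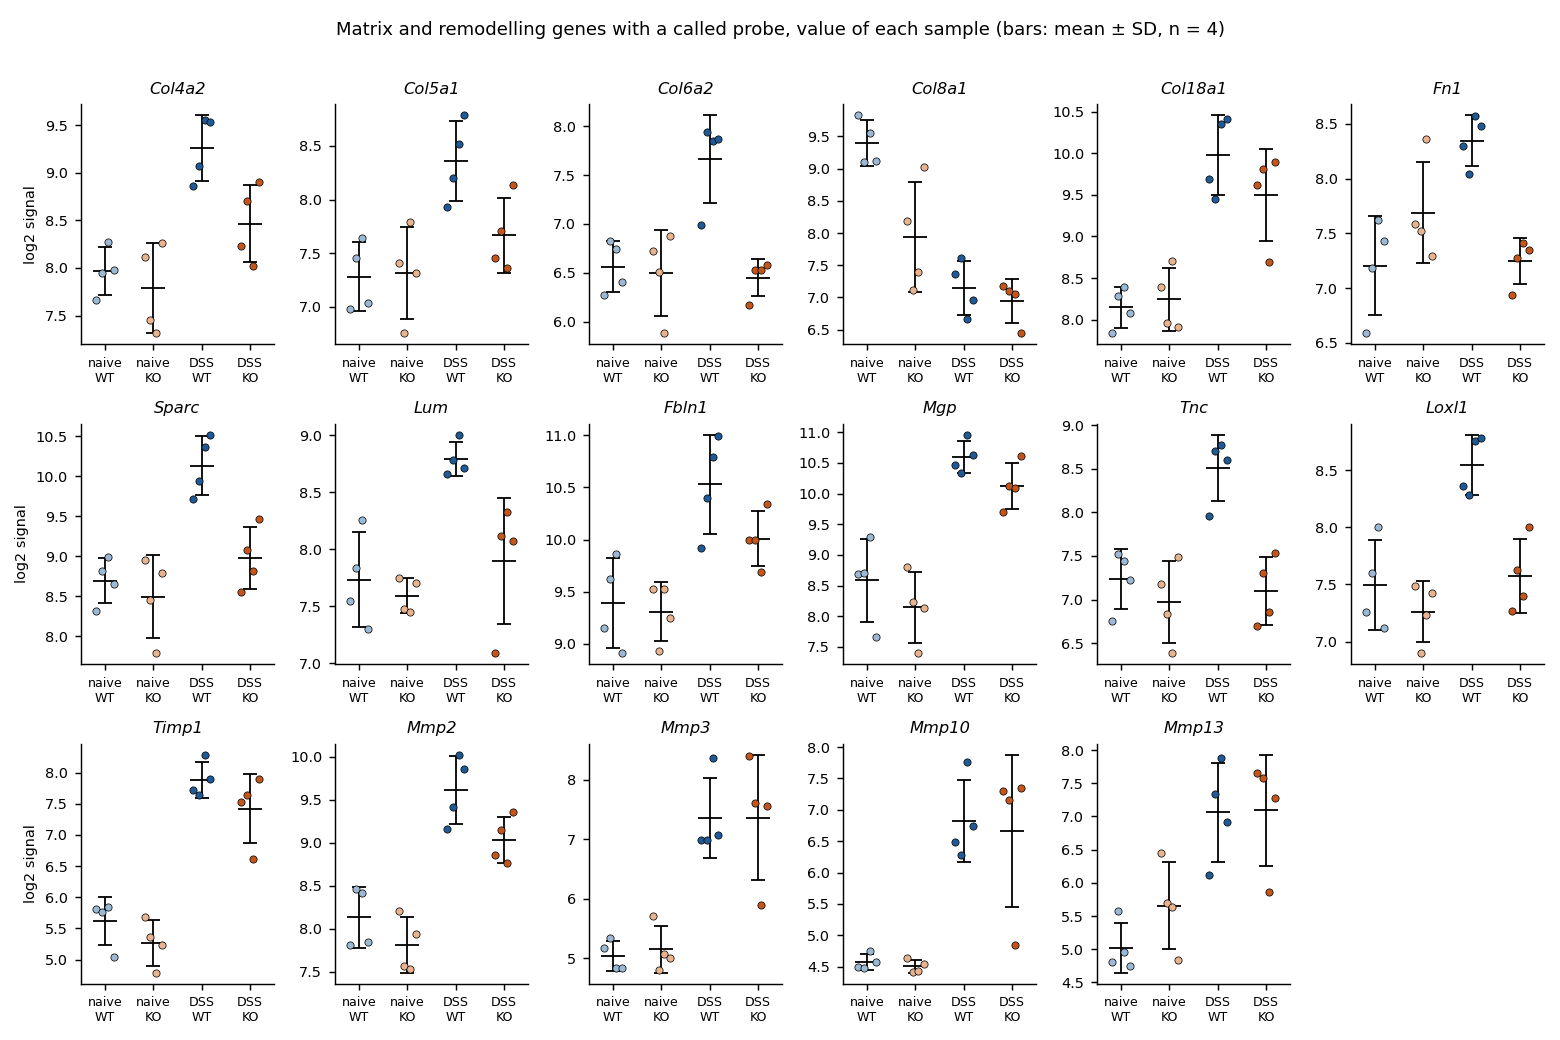
Log2 signal of 17 matrix and remodelling genes in each sample (points), with the mean and SD of each group of n = 4 (bars), for Naive_WT, Naive_KO, DSS_WT and DSS_KO. Mmp2, Mgp and Timp1 were higher in both DSS groups than in their naive groups without overlap, whereas Sparc, Tnc, Fn1 and Col6a2 in DSS_KO sat below every DSS_WT sample.

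The stromelysins Mmp3 and Mmp10, which cut many non-fibrillar matrix proteins, and the collagenase Mmp13, which cuts fibrillar collagen, lie in one cluster on chromosome 9, with 230 kb from the start of Mmp13 to that of Mmp10. Mmp3 and Mmp13 rose with DSS in both genotypes, and the Mmp10 probe was detected on DSS arrays only. The 250 bases before each RefSeq start are therefore shown (GRCm38.p6, plus strand, chr9:7272264-7272513 for Mmp13, chr9:7445572-7445821 for Mmp3 and chr9:7502092-7502341 for Mmp10). Capitals mark the heptamer TGAGTCA, searched on both strands and so also read as TGACTCA, the letters of the classical AP-1 site, and the TATA-box letters TATAAA.
Mmp13: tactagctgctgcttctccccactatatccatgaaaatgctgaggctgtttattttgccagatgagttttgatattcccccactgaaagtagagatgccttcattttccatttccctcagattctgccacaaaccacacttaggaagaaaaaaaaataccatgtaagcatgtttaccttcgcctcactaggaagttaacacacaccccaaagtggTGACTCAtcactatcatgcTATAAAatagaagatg
Mmp3: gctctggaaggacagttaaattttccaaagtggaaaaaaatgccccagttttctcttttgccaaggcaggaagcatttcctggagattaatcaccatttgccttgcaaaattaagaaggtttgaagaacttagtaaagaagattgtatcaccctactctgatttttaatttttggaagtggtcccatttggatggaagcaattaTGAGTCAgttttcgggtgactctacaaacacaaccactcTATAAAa
Mmp10: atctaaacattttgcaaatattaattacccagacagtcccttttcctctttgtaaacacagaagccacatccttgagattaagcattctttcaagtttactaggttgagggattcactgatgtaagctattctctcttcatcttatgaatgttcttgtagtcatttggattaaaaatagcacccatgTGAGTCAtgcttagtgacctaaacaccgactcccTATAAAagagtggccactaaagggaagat
The heptamer began 35 bases before the start in Mmp13, 46 in Mmp3 and 63 in Mmp10, with TATAAA between it and the start each time, at 16, 7 and 29 bases. Of the 29 members with a RefSeq window, 4 (13.8%) held the heptamer, the fourth being Col6a1 at 90 bases, and of all 27025 genes 1395 (5.16%) held it. Both sets of letters stood together in 237 of 32851 windows (0.721%). Each of the 3 windows held 1 CpG, the dinucleotide whose methylated form Mbd2 binds, where the median window held 6 over all genes and 8 over the members. A match of letters is a description and not a binding site.

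Mmp3 (stromelysin-1) had log2 signals of 5.17, 5.34, 4.84 and 4.83 in Naive_WT, 5.72, 4.81, 5.07 and 5.00 in Naive_KO, 6.99, 7.00, 8.37 and 7.08 in DSS_WT, and 8.40, 7.62, 5.89 and 7.56 in DSS_KO. The probe was detected on 2 of 4 Naive_WT arrays, 3 of 4 Naive_KO arrays and all DSS arrays. All 8 DSS samples were above all 8 naive samples, with DSS_KO sample 5 and DSS_WT sample 3 the highest and DSS_KO sample 7 the lowest of the DSS samples. It rose 4.97-fold (log2 difference 2.31, SE 0.409, adjusted p 0.00226) in wild type and 4.65-fold (log2 difference 2.22, SE 0.409, adjusted p 0.0034) in Mbd2KO. A further Mmp3 probe was not detected on any naive array and was at least 5.72-fold higher with DSS in wild type and at least 5.19-fold higher in Mbd2KO (adjusted p 0.00211 and 0.00187), and another at least 2.51-fold and 2.66-fold (adjusted p 0.021 and 0.0125). Both passed the detection filter only through DSS arrays, so their p-values add no support to the rise. These bounds set the DSS mean against the lowest signal that counted as detected on the naive arrays.

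Mmp10 (stromelysin-2) had 4.49, 4.48, 4.74 and 4.58 in Naive_WT, 4.64, 4.42, 4.43 and 4.54 in Naive_KO, 6.49, 6.27, 7.77 and 6.75 in DSS_WT, and 7.29, 7.16, 4.85 and 7.35 in DSS_KO. Its probe was not detected on any naive array, was detected on all 5 DSS_WT arrays and on 4 of the 5 DSS_KO arrays, and in DSS_KO sample 7 stayed near the naive level. As it passed the detection filter only through DSS arrays, it had to differ, and its p adds no support. The difference with DSS was at least 3.79-fold in wild type and at least 3.21-fold in Mbd2KO (adjusted p 0.00347 and 0.00517). Mmp13 (collagenase-3) had 4.82, 5.57, 4.97 and 4.74 in Naive_WT, 6.45, 5.70, 5.63 and 4.84 in Naive_KO, 6.12, 7.33, 7.89 and 6.91 in DSS_WT, and 7.65, 7.58, 5.87 and 7.27 in DSS_KO. This probe too was detected on 2 of 4 Naive_WT and 3 of 4 Naive_KO arrays. With DSS the wild-type samples were separate from their naive samples, while in Mbd2KO the DSS and naive samples overlapped through DSS_KO sample 7 and Naive_KO sample 13. The change was 4.11-fold (log2 difference 2.04, SE 0.412, adjusted p 0.00537) in wild type, a call, and 2.71-fold (log2 difference 1.44, SE 0.412, adjusted p 0.0374) in Mbd2KO, a rise that was not a call. A dimmer Mmp13 probe, detected on 8 arrays, had a log2 difference of -0.09 in both genotypes.

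Mmp2 (gelatinase A, which degrades denatured collagen and type IV collagen) had 7.81, 8.47, 8.41 and 7.84 in Naive_WT, 8.21, 7.56, 7.53 and 7.94 in Naive_KO, 9.16, 9.41, 10.02 and 9.85 in DSS_WT, and 8.86, 9.15, 8.76 and 9.36 in DSS_KO. Neither genotype's DSS samples overlapped its naive samples. Mmp2 was called higher by 2.79-fold (log2 difference 1.48, SE 0.218, adjusted p 0.000698) in wild type and by 2.33-fold (log2 difference 1.22, SE 0.218, adjusted p 0.00281) in Mbd2KO. Timp1, a secreted inhibitor of most metalloproteinases and a gene known to rise in inflamed gut, had 5.82, 5.76, 5.85 and 5.05 in Naive_WT, 5.68, 5.36, 4.79 and 5.23 in Naive_KO, 7.72, 7.63, 8.28 and 7.89 in DSS_WT, and 7.53, 7.64, 6.62 and 7.90 in DSS_KO. The 8 DSS samples again lay above the 8 naive samples, and sample 12 was low among the Naive_WT samples. This probe was detected on 3 of 4 Naive_KO arrays and on all other arrays. Timp1 was called higher by 4.8-fold (log2 difference 2.26, SE 0.259, adjusted p 0.000245) in wild type and by 4.46-fold (log2 difference 2.16, SE 0.259, adjusted p 0.000288) in Mbd2KO, and a second probe gave log2 differences of 2.28 and 2.14.

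Of the 18 collagen probes, 12 rose with DSS in wild type and 5 probes, of Col18a1, Col4a2, Col5a1 and Col6a2, were called higher, while in Mbd2KO Col18a1 alone passed either threshold. Their median log2 difference was 0.94 in wild type and 0.22 in Mbd2KO. Among the basement membrane collagens, Col4a2 (an alpha 2 chain of the type IV network) had 7.66, 7.95, 8.27 and 7.98 in Naive_WT, 8.11, 7.46, 7.31 and 8.26 in Naive_KO, 8.86, 9.07, 9.56 and 9.54 in DSS_WT, and 8.23, 8.70, 8.02 and 8.90 in DSS_KO. Every DSS_WT sample was above every Naive_WT sample, whereas the highest naive sample of the Mbd2KO groups, sample 16, exceeded the lower pair of DSS_KO samples. Col4a2 was called higher by 2.45-fold (log2 difference 1.29, SE 0.239, adjusted p 0.00308) in wild type, and in Mbd2KO its difference was 0.68, adjusted p 0.0864. Col4a1, its partner chain, whose start lies 21 bases from that of Col4a2 on the opposite strand, rose in wild type (1.12, adjusted p 0.033) and had 0.87, adjusted p 0.0939 in Mbd2KO.

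Col18a1, a basement membrane collagen whose end fragment is endostatin, had 7.84, 8.28, 8.39 and 8.08 in Naive_WT, 8.40, 7.96, 8.70 and 7.91 in Naive_KO, 9.69, 9.45, 10.35 and 10.41 in DSS_WT, and 9.61, 9.81, 8.69 and 9.90 in DSS_KO. The wild-type groups were apart, and in Mbd2KO the 1 DSS sample that reached down to the naive samples was sample 7. Col18a1 was called higher by 3.54-fold (log2 difference 1.82, SE 0.269, adjusted p 0.000698) in wild type and by 2.39-fold (log2 difference 1.26, SE 0.269, adjusted p 0.0084) in Mbd2KO, and a second probe was called in wild type (1.61, adjusted p 0.00133) and rose without a call in Mbd2KO (1.03, adjusted p 0.0206). Col15a1, of the same subfamily, did not pass in wild type (0.84, adjusted p 0.0776).

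Of the chains that build fibrils and microfibrils, Col5a1, which starts the assembly of type I collagen fibrils, had 6.98, 7.46, 7.65 and 7.04 in Naive_WT, 7.41, 6.75, 7.80 and 7.31 in Naive_KO, 7.93, 8.20, 8.51 and 8.79 in DSS_WT, and 7.46, 7.71, 7.36 and 8.13 in DSS_KO. Its wild-type DSS samples were all above the naive ones, and its Mbd2KO groups overlapped. Col5a1 was called higher by 2.11-fold (log2 difference 1.08, SE 0.235, adjusted p 0.00881) in wild type, beside 0.35, adjusted p 0.385 in Mbd2KO. Col6a2, a chain of the beaded type VI microfibrils, had 6.27, 6.82, 6.74 and 6.41 in Naive_WT, 6.73, 6.50, 5.88 and 6.88 in Naive_KO, 6.99, 7.94, 7.85 and 7.87 in DSS_WT, and 6.16, 6.53, 6.52 and 6.58 in DSS_KO. DSS_WT was separate from Naive_WT, with its sample 1 the lowest, and the DSS_KO samples lay within the range of Naive_KO. Col6a2 was called higher by 2.15-fold (log2 difference 1.10, SE 0.226, adjusted p 0.00596) in wild type, and in Mbd2KO the difference was -0.05, adjusted p 0.924. Its partner chains Col6a1 (1.00, adjusted p 0.0174) and Col6a3 (1.08, adjusted p 0.0126), the fibril-associated Col14a1 (0.88, adjusted p 0.0199) and the type I chain Col1a1 (1.20, adjusted p 0.0452) rose in wild type without a call, and the second Col6a1 probe had 0.63, adjusted p 0.107. The other major fibrillar chains, Col1a2 (0.37, adjusted p 0.475) and Col3a1 (0.75, adjusted p 0.103), did not pass.

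Col8a1, a short-chain collagen of vessel walls and the Descemet membrane, went the other way. It had 9.83, 9.10, 9.55 and 9.11 in Naive_WT, 8.19, 7.12, 7.40 and 9.03 in Naive_KO, 7.36, 7.62, 6.67 and 6.96 in DSS_WT, and 7.18, 7.10, 7.06 and 6.45 in DSS_KO. Naive_WT stood above the other 3 groups without overlap. With DSS it was lower in wild type by 4.74-fold (log2 difference -2.24, SE 0.331, adjusted p 0.000698), a call shared by its second probe (-2.18, adjusted p 0.000615). In Mbd2KO the differences of the pair of probes were -0.99, adjusted p 0.0707, and -0.97, adjusted p 0.0615.

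Other matrix proteins had 32 tested probes, of which 21 rose with DSS in wild type and 9, of Fbln1, Fn1, Loxl1, Lum, Mgp, Sparc and Tnc, were called higher. In Mbd2KO Fbln1, Lox and Mgp rose and Mgp was the 1 member of this class called. The class medians were 0.83 and 0.35. Mgp (matrix Gla protein, an inhibitor of calcification) had 8.70, 8.70, 9.29 and 7.66 in Naive_WT, 8.81, 8.23, 7.40 and 8.14 in Naive_KO, 10.47, 10.34, 10.95 and 10.63 in DSS_WT, and 9.70, 10.12, 10.09 and 10.61 in DSS_KO. Both DSS groups were above both naive groups. Mgp was called higher by 4.02-fold (log2 difference 2.01, SE 0.31, adjusted p 0.000932) in wild type and by 3.96-fold (log2 difference 1.98, SE 0.31, adjusted p 0.00114) in Mbd2KO. Fbln1 (fibulin-1, of basement membranes and elastic fibres) had 9.16, 9.62, 9.86 and 8.91 in Naive_WT, 9.53, 8.93, 9.53 and 9.25 in Naive_KO, 9.92, 10.40, 10.79 and 10.99 in DSS_WT, and 10.00, 10.00, 9.69 and 10.34 in DSS_KO. DSS samples did not overlap naive samples in either genotype. Fbln1 was called higher by 2.21-fold (log2 difference 1.14, SE 0.238, adjusted p 0.00654) in wild type, and in Mbd2KO this probe had 0.70, adjusted p 0.0744 while a pair of its other 3 probes rose (1.11, adjusted p 0.0104, and 0.86, adjusted p 0.00693).

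Then came glycoproteins that cells bind. Fn1 (fibronectin) had 6.59, 7.18, 7.62 and 7.43 in Naive_WT, 7.58, 7.52, 8.36 and 7.30 in Naive_KO, 8.29, 8.05, 8.57 and 8.48 in DSS_WT, and 6.94, 7.28, 7.41 and 7.35 in DSS_KO. The DSS_WT samples were above Naive_WT, and of the Naive_KO samples only sample 16 lay within the DSS_KO range, the other 3 being above every DSS_KO sample. Fibronectin was called higher by 2.21-fold (log2 difference 1.14, SE 0.229, adjusted p 0.00517) in wild type, and the Mbd2KO difference was -0.45, adjusted p 0.244. Sparc (osteonectin, a collagen-binding matricellular protein) had 8.32, 8.81, 8.98 and 8.65 in Naive_WT, 8.96, 8.45, 7.79 and 8.79 in Naive_KO, 9.71, 9.94, 10.37 and 10.51 in DSS_WT, and 8.55, 9.07, 8.82 and 9.46 in DSS_KO. DSS_WT was clear of Naive_WT, while DSS_KO and Naive_KO overlapped. Sparc was called higher by 2.71-fold (log2 difference 1.44, SE 0.251, adjusted p 0.00212) in wild type, beside 0.48, adjusted p 0.25 in Mbd2KO, and its 2 dimmer probes did not pass in wild type (0.73, adjusted p 0.127, and 0.62, adjusted p 0.149). Tnc (tenascin-C, a protein of wound matrix) had 6.75, 7.52, 7.44 and 7.22 in Naive_WT, 7.18, 6.84, 6.39 and 7.49 in Naive_KO, 7.95, 8.71, 8.78 and 8.60 in DSS_WT, and 6.69, 7.31, 6.85 and 7.54 in DSS_KO. All DSS_WT samples exceeded all Naive_WT samples, and DSS_KO overlapped Naive_KO. Tnc was called higher by 2.43-fold (log2 difference 1.28, SE 0.252, adjusted p 0.00468) in wild type, beside 0.12, adjusted p 0.808 in Mbd2KO, and a dim probe detected on 4 arrays had -0.07, adjusted p 0.765 in wild type.

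Lum (lumican, a small proteoglycan that spaces collagen fibrils) had 7.54, 7.84, 8.26 and 7.30 in Naive_WT, 7.75, 7.47, 7.45 and 7.71 in Naive_KO, 8.66, 8.78, 9.00 and 8.72 in DSS_WT, and 7.09, 8.11, 8.33 and 8.07 in DSS_KO. The DSS_WT samples were tightly grouped above the Naive_WT samples, and DSS_KO straddled Naive_KO. Lumican was called higher by 2.08-fold (log2 difference 1.05, SE 0.23, adjusted p 0.00883) in wild type, beside 0.31, adjusted p 0.443 in Mbd2KO. Loxl1, an enzyme that crosslinks elastin, had 7.26, 7.60, 8.00 and 7.12 in Naive_WT, 7.49, 6.90, 7.24 and 7.42 in Naive_KO, 8.36, 8.28, 8.76 and 8.78 in DSS_WT, and 7.26, 7.63, 7.39 and 8.01 in DSS_KO. Wild-type groups were separate and Mbd2KO groups overlapped. Loxl1 was called higher by 2.07-fold (log2 difference 1.05, SE 0.205, adjusted p 0.00448) in wild type, beside 0.31, adjusted p 0.372 in Mbd2KO. Its relative Lox, which crosslinks collagen and elastin, rose in both genotypes without a call (0.89, adjusted p 0.0448 in wild type and 0.92, adjusted p 0.04 in Mbd2KO).

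Among the remaining members, the small proteoglycans Dcn and Bgn, the microfibril protein Fbn1, the fibulin Fbln2, the matricellular Thbs2, the basement membrane linker Nid1 and Pcolce, which speeds the trimming of procollagen, rose with DSS in wild type. Their log2 differences ran from 0.68 (Dcn) to 1.00 (Bgn), adjusted p 0.00895 to 0.0321, and none of these probes was called. Dimmer probes of Dcn (0.58, adjusted p 0.0705, and 0.35, adjusted p 0.144) and Fbln2 (0.38, adjusted p 0.0857) did not pass. Elastin (Eln, 0.54, adjusted p 0.293), its microfibril partner Mfap5 (0.66, adjusted p 0.079) and the collagen chaperone Serpinh1 (0.77, adjusted p 0.0549) did not pass. Thbs1 fell by 2.53-fold (log2 difference -1.34, SE 0.315, adjusted p 0.0135) in wild type, without overlap of the groups, and in Mbd2KO its difference was -0.13, adjusted p 0.844.

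**Figure D2:**
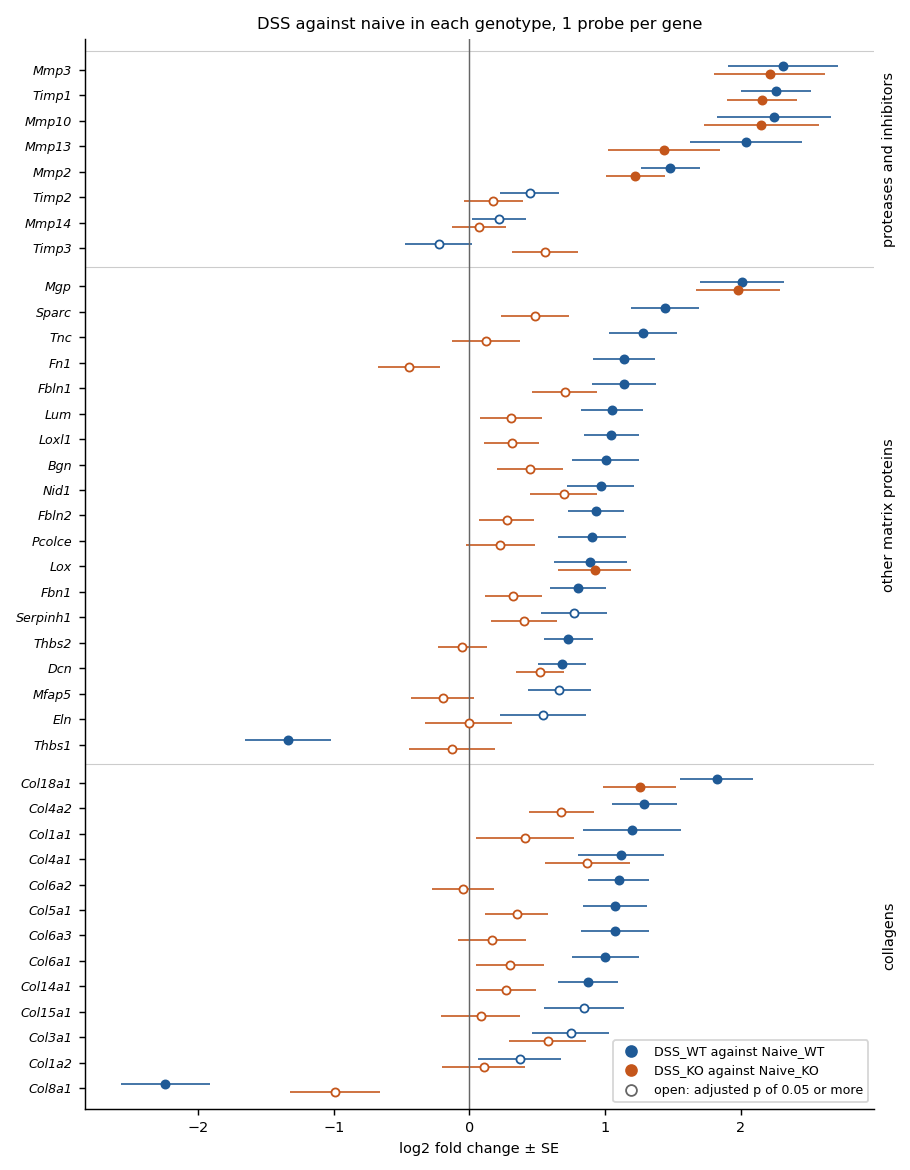
Log2 difference with DSS ± SE for 40 genes, 1 probe each, in wild type (blue, DSS_WT against Naive_WT) and Mbd2KO (orange, DSS_KO against Naive_KO), with filled points at an adjusted p under 0.05. Mmp10 was detected on no naive array and has only a lower bound. Mgp, Timp1, Mmp2 and Mmp3 are filled in both genotypes, and over the collagen probes the median is 0.94 in wild type and 0.22 in Mbd2KO.

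Markers of other cells moved with DSS as well. Of all probes, 5.71% rose and 1.34% were called higher in wild type, and 1.07% were called higher in Mbd2KO. The log2 of the summed fibroblast marker signal was 10.07 to 11.05 in Naive_WT and 11.20 to 11.58 in DSS_WT, with 5 of 10 probes risen, among them the fibroblast receptor Pdgfra (1.38, adjusted p 0.00169) and the transcription factor Tcf21 (1.03, adjusted p 0.00238), both called. In Mbd2KO it was 10.11 to 10.60 in naive and 10.39 to 10.89 in DSS samples, and these ranges overlapped. Macrophage and monocyte markers had 10 of 12 probes called higher in wild type and 4 of 12 in Mbd2KO, and their summed signal was 10.45 to 10.90 in Naive_WT, 11.23 to 12.17 in DSS_WT, 10.72 to 11.63 in Naive_KO and 11.95 to 12.08 in DSS_KO. The summed smooth muscle signal was 13.17 to 14.00 in Naive_WT and 13.48 to 13.98 in DSS_WT, which overlapped, and 5 of 15 endothelial probes rose in wild type. In Mbd2KO the smooth muscle sum was 12.92 to 13.38 in naive and 12.30 to 13.17 in DSS samples, which overlapped too. The median smooth muscle difference was 0.16 in wild type and -0.32 in Mbd2KO. In Mbd2KO 0 of 15 endothelial probes rose (background 4.9%). Of the 3 tested neutrophil probes, those of the calprotectin chains S100a8 and S100a9, which inflamed epithelium can also make, rose in wild type (at least 5.27-fold and 3.76-fold, adjusted p 0.0173 and 0.0295) and were called higher in Mbd2KO. The S100a9 probe was detected on no naive array and the S100a8 probe on 1 Naive_KO array alone. Both passed the detection filter through DSS arrays, so their p-values and calls add no support to a rise. The summed neutrophil signal was 6.11 to 6.41 in Naive_WT and 6.10 to 6.47 in Naive_KO, 6.93 to 9.65 in DSS_WT with sample 3 the highest, and 7.65 to 11.24 in DSS_KO with sample 5 the highest and sample 7 the lowest, the same samples as for Mmp3. The neutrophil granule genes Mpo and Elane did not reach the detection rule. The part of these cell types in the matrix values was not tested.

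Single samples carried weight in these counts. The 23 wild-type calls became 11 without DSS_WT sample 3, 10 without DSS_WT sample 4, and 12, 14 and 13 without Naive_WT samples 9, 10 and 12, and the 44 probes that rose or fell became 29 without Naive_WT sample 12. The 8 calls in Mbd2KO became 5 without DSS_KO sample 5, 4 without DSS_KO samples 6 or 8, 4 without Naive_KO sample 14, 5 without Naive_KO sample 16, and 12 without DSS_KO sample 7.

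With DSS, every member probe that passed the test between the genotypes was lower in DSS_KO. Of the 64 member probes, 15 probes of 13 genes fell, 23.4% against a background of 3.17% of all probes, and 3 were called lower, 4.69% against 0.36%. None of the member probes rose (background 2.46%) or was called higher (background 0.501%) by limma, and 10 had a higher mean, of which 1, of Thbs1, was higher at an unadjusted p under 0.05 (1.56%, background 10.2%). The median log2 difference was -0.47 over the members and 0.00 over all probes. By class it was -0.63 over the collagens, of whose 18 probes 4 fell, -0.53 over the other matrix proteins, of whose 32 probes 10 fell, and -0.11 over the proteases and inhibitors, of whose 14 probes 1 fell and 6 had a higher mean. This comparison shares the DSS_WT samples with that of DSS in wild type and the DSS_KO samples with that of DSS in Mbd2KO, so a high or low sample moves both.

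The called members were Tnc and Col6a2. Tnc, whose values are given above, had a mean of 8.51 ± 0.38 in DSS_WT and 7.10 ± 0.39 in DSS_KO (SD, n = 4), with the lowest DSS_WT sample above the highest DSS_KO sample. It was lower by 2.66-fold (log2 difference -1.41, SE 0.252, adjusted p 0.00496), and its second probe was called as well (-1.47, adjusted p 0.0036), while a dim probe, detected on 4 arrays, had 0.10. Col6a2 had 7.66 ± 0.45 and 6.45 ± 0.19, again with no overlap, and was lower by 2.32-fold (log2 difference -1.21, SE 0.226, adjusted p 0.00628). Its dimmer probe had -0.45, adjusted p 0.131.

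The collagens that fell beside Col6a2 were its partners Col6a1 (DSS_WT 9.48 to 10.14, DSS_KO 8.31 to 9.23, difference -1.04, adjusted p 0.0227) and Col6a3 (DSS_WT 9.36 to 10.13, DSS_KO 8.26 to 8.92, difference -1.03, adjusted p 0.0243), and Col14a1 (DSS_WT 6.60 to 7.25, DSS_KO 5.40 to 6.26, difference -1.03, adjusted p 0.0138). For these probes and that of Col6a2 the groups did not overlap. The second probes of Col6a1 (-0.68, adjusted p 0.106) and Col14a1 (-0.35, adjusted p 0.317), each detected on all 18 arrays, did not pass, and their groups overlapped. The fibrillar chains Col1a1, Col1a2, Col3a1 and Col5a1 did not pass, with differences from -0.91 (Col1a1) to -0.28 (Col1a2), adjusted p 0.0919 to 0.645. Neither did the basement membrane chains Col4a1, Col4a2, Col15a1 and Col18a1, with differences from -0.96 (Col15a1) to -0.47 (Col18a1), adjusted p 0.0626 to 0.328, nor Col8a1 (-0.21, adjusted p 0.773). All 18 collagen probes had a lower mean in DSS_KO.

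Of the other matrix proteins, Fn1 had 8.35 ± 0.23 in DSS_WT and 7.25 ± 0.21 in DSS_KO, did not overlap, and fell by 2.15-fold (log2 difference -1.10, SE 0.229, adjusted p 0.0112). Sparc had 10.13 ± 0.37 and 8.98 ± 0.39, with the highest DSS_KO sample, sample 8, below the lowest DSS_WT sample. It fell by 2.23-fold (log2 difference -1.16, SE 0.251, adjusted p 0.0141), and its 2 dimmer probes did not pass (-0.20, adjusted p 0.756, and -0.50, adjusted p 0.285). Loxl1 had 8.54 ± 0.26 and 7.57 ± 0.33, also apart, and fell by 1.96-fold (log2 difference -0.97, SE 0.205, adjusted p 0.0121). Lum had 8.79 ± 0.15 and 7.90 ± 0.55, the DSS_KO spread being set by the low sample 5, and fell by 1.85-fold (log2 difference -0.89, SE 0.23, adjusted p 0.0325). Its second probe did not pass (-0.74, adjusted p 0.0548), and the fall passed in 19 of 26 other settings. The elastic-fibre proteins Fbln2 (-0.998, adjusted p 0.0104), Fbn1 (-0.74, adjusted p 0.0485) and Mfap5 (-1.01, adjusted p 0.0186) fell too, while a dimmer Fbln2 probe had -0.37, adjusted p 0.121 and elastin -0.59, adjusted p 0.292.

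Other members of this class were lower in DSS_KO without passing, namely Bgn, Pcolce, Nid1, Thbs2, Dcn, Fbln1, Mgp, Lox and Serpinh1, with differences from -0.86 (Pcolce) to -0.29 (Serpinh1), adjusted p 0.0559 to 0.567. Dimmer probes of Fbln1 (0.015, adjusted p 0.982) and Serpinh1 (0.11, adjusted p 0.854), each detected on all 18 arrays, had a slightly higher mean in DSS_KO. Thbs1 was higher without passing (0.68, adjusted p 0.213).

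The proteases were near 0 or did not pass. Mmp3 had 7.36 ± 0.68 in DSS_WT and 7.37 ± 1.06 in DSS_KO (log2 difference 0.01, SE 0.409, adjusted p 0.994), Mmp10 6.82 ± 0.66 and 6.66 ± 1.21 (log2 difference -0.16, SE 0.424, adjusted p 0.869), and Mmp13 7.06 ± 0.74 and 7.09 ± 0.83 (log2 difference 0.03, SE 0.412, adjusted p 0.979). DSS_KO sample 7 was the lowest DSS sample for all 3 genes, and without it the Mmp10 difference was 0.45, adjusted p 0.351. Mmp2 (log2 difference -0.58, SE 0.218, adjusted p 0.125), Timp1 (log2 difference -0.46, SE 0.259, adjusted p 0.315) and Mmp14 (log2 difference 0.16, SE 0.198, adjusted p 0.705) did not pass. The 1 member of the class that fell was Timp2, an inhibitor that also takes part in activating Mmp2, with 9.31 to 9.55 in DSS_WT and 8.19 to 8.72 in DSS_KO and no overlap. It was lower by 1.94-fold (log2 difference -0.96, SE 0.218, adjusted p 0.0181), and Timp3, a matrix-bound inhibitor, had -0.42, adjusted p 0.336.

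**Figure D3:**
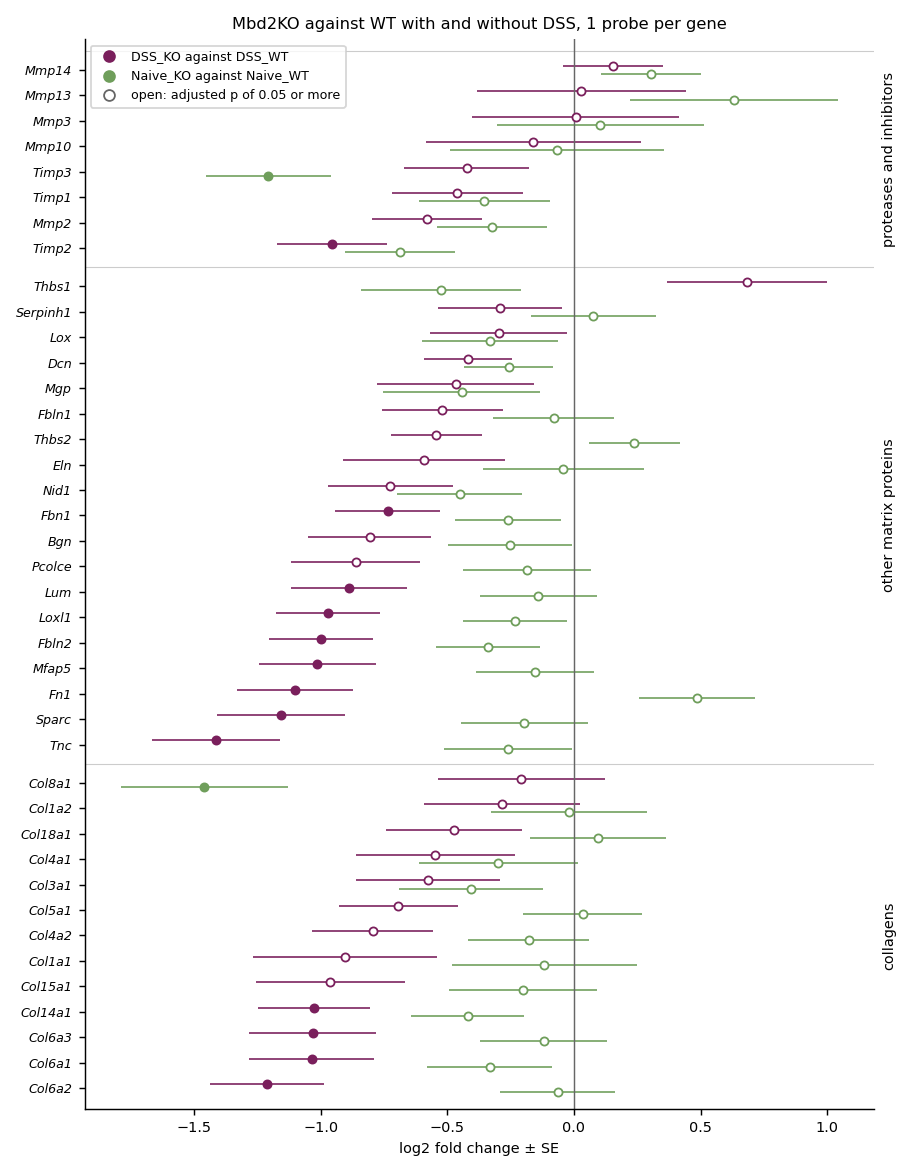
Log2 difference of Mbd2KO against WT ± SE for 40 genes, 1 probe each, with DSS (purple, DSS_KO against DSS_WT) and without (green, Naive_KO against Naive_WT), with filled points at an adjusted p under 0.05. With DSS the filled points, led by Tnc and Col6a2, all lie below 0, and without DSS the filled ones are Col8a1 and Timp3. The Mmp10 probe was detected on no naive array, so its green point is background against background.

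Endothelial, smooth muscle and fibroblast markers had fallen probes in DSS_KO as well, beside 3.17% of all probes fallen and 0.36% called lower. Endothelial markers had 10 of 15 probes fallen and 5 called lower, with a summed signal of 10.76 to 11.28 in DSS_WT and 9.80 to 10.43 in DSS_KO. Smooth muscle markers had 8 of 19 probes fallen and 3 called lower, namely Actg2, Myh11 and Tagln, with 13.48 to 13.98 and 12.30 to 13.17. Fibroblast markers had 2 of 10 probes fallen, Dpt (-1.22, adjusted p 0.0208) and Tcf21 (-0.71, adjusted p 0.0326), with 11.20 to 11.58 and 10.39 to 10.89. Pericyte markers had 1 of 5 probes fallen, with 7.63 to 7.89 and 7.45 to 7.57. Enteric glia markers had 0 of 2 probes fallen, with 6.51 to 7.01 and 6.00 to 6.47. Markers of macrophages, monocytes and neutrophils did not pass the test in limma: 9 of 12 macrophage and monocyte probes (median difference 0.34) and 3 of 3 neutrophil probes (median 0.70) were higher in DSS_KO, with 0 at an unadjusted p under 0.05. Of the 4 tested lymphocyte and pan-leukocyte probes 2 were higher and 1, of the T cell receptor component Cd3g, fell (-0.45, adjusted p 0.049). The Cd3g probe was near the detection limit, with a mean of 5.23 in DSS_WT (detected on 4 arrays) and 4.78 in DSS_KO (2 arrays). It was detected on no naive array. The summed macrophage and neutrophil signals and the epithelial one, given above, overlapped between DSS_WT and DSS_KO. The part of these cells in the matrix values was not tested.

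The count of 3 calls rested on single samples: it was 0 without DSS_WT samples 2, 3 or 4 and without DSS_KO samples 5 or 7, 5 without DSS_WT sample 1 or Naive_WT sample 11, and 6 without Naive_KO sample 15. The 15 probes that fell became 7 without DSS_WT sample 2 and 8 without DSS_KO sample 5. With the arrays scaled to a common median in place of quantile normalisation, 8 probes were called, all lower, and without background correction or without the detection filter 0 were.

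Without DSS the genotypes differed at few members. None was called in either direction by limma (background 0.401% higher and 0.255% lower), none rose (background 2.43%), and 4 probes fell, 6.25% against 2.77% of all probes. At an unadjusted p under 0.05, 1 member probe, of Fn1, was higher (1.56%, background 11%) and 6, of Col8a1, Sparc, Timp2 and Timp3, were lower (9.38%, background 11.8%). The median difference was -0.18 over the members and 0.00 over all probes.

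The 4 probes were a pair each of Col8a1 and Timp3. Col8a1 had 9.40 ± 0.36 in Naive_WT and 7.94 ± 0.86 in Naive_KO, with the highest Naive_KO sample, sample 16, just under the lowest Naive_WT sample. It was lower by 2.75-fold (log2 difference -1.46, SE 0.331, adjusted p 0.0196), and the second probe had -1.55, adjusted p 0.0112. Timp3, outside the rule for genes shown in every sample and added after its values were seen, had 9.14, 9.99, 9.42 and 10.17 in Naive_WT, 8.64, 8.47, 7.77 and 9.01 in Naive_KO, 9.12, 9.63, 9.51 and 9.55 in DSS_WT, and 8.95, 9.08, 8.76 and 9.33 in DSS_KO. Naive_KO lay below Naive_WT without overlap, and it was lower by 2.31-fold (log2 difference -1.21, SE 0.247, adjusted p 0.0117), with a second probe at -1.24 (adjusted p 0.0122) and a dim further one at -0.20. Beside these values, the summed endothelial marker signal was 10.32 to 10.90 in Naive_WT and 9.86 to 10.17 in Naive_KO, without overlap, and 2 of 15 endothelial probes fell, of Flt1 (-0.94, adjusted p 0.0107) and Esam (-0.75, adjusted p 0.0263). Of the pericyte probes 1 of 5 fell. Over all probes 2.77% fell and 2.43% rose. The summed macrophage and monocyte signal, given above, overlapped between the naive groups through Naive_KO sample 16, with 11 of 12 probes higher in Naive_KO (median difference 0.56) and 1 risen, of Csf1r (0.67, adjusted p 0.0486). The part of these cells in the naive values was not tested. With only the naive samples in the fit none of the 4 probes passed in limma, Col8a1 having an adjusted p of 0.0708. The naive calls were 1 without Naive_WT samples 9 or 11 and 4 without Naive_KO sample 16.

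Whether DSS acted differently in the genotypes was tested as the interaction, the DSS difference in Mbd2KO minus that in wild type. No member probe passed an adjusted p of 0.05 in either direction by limma, and neither did any of the 21938 probes, so the background was 0% higher and 0% lower. At an unadjusted p under 0.05, 15 member probes of 12 genes had a lower DSS difference in Mbd2KO, 23.4% against 5.1% of all probes, and 5 probes of Col8a1, Thbs1 and Timp3 a higher one, 7.81% against 5.56%. The median interaction was -0.35 over the members, -0.64 over the collagens, -0.44 over the other matrix proteins and -0.10 over the proteases and inhibitors, beside -0.01 over all probes.

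Fn1 had the smallest interaction p of the members, with a DSS difference of 1.14 in wild type and -0.45 in Mbd2KO, an interaction of -1.59 (SE 0.324), an unadjusted limma p of 0.000143 and an adjusted p of 0.17. Col6a2 (log2 difference -1.15, SE 0.32, adjusted p 0.234) and Tnc (log2 difference -1.15, SE 0.357, adjusted p 0.257) had the same sign, and in both the DSS difference in Mbd2KO was near 0. Col8a1 had an interaction of 1.25 (SE 0.469, adjusted p 0.346), from a DSS difference of -2.24 in wild type and -0.99 in Mbd2KO. For Mgp (log2 difference -0.02, SE 0.438, adjusted p 0.99), Timp1 (log2 difference -0.11, SE 0.366, adjusted p 0.948), Mmp2 (log2 difference -0.26, SE 0.308, adjusted p 0.814) and Mmp3 (log2 difference -0.10, SE 0.578, adjusted p 0.972) the interaction was smaller than its standard error, which does not show that the genotypes respond alike.

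Mean log2 signals over the genes of each class show how the samples lie. The 13 collagens had 7.35, 7.60, 8.00 and 7.31 in Naive_WT, 7.62, 7.04, 7.05 and 7.49 in Naive_KO, 7.91, 8.31, 8.50 and 8.70 in DSS_WT, and 7.34, 7.74, 7.38 and 7.97 in DSS_KO. DSS_KO overlapped DSS_WT only through sample 8, which was above DSS_WT sample 1. The 19 other matrix proteins had 7.22, 7.56, 7.89 and 7.19 in Naive_WT, 7.49, 7.08, 7.18 and 7.42 in Naive_KO, 8.04, 8.30, 8.54 and 8.49 in DSS_WT, and 7.40, 7.72, 7.52 and 7.97 in DSS_KO, with every DSS_WT sample above every sample of the other 3 groups. The 8 proteases and inhibitors had 7.07, 7.38, 7.24 and 6.97 in Naive_WT, 7.26, 6.89, 6.74 and 6.96 in Naive_KO, 8.16, 8.35, 9.01 and 8.53 in DSS_WT, and 8.45, 8.47, 7.43 and 8.51 in DSS_KO. Here 3 DSS_KO samples lay inside the DSS_WT range and sample 7 lay below it, while all DSS samples were above all naive ones.

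**Figure D4:**
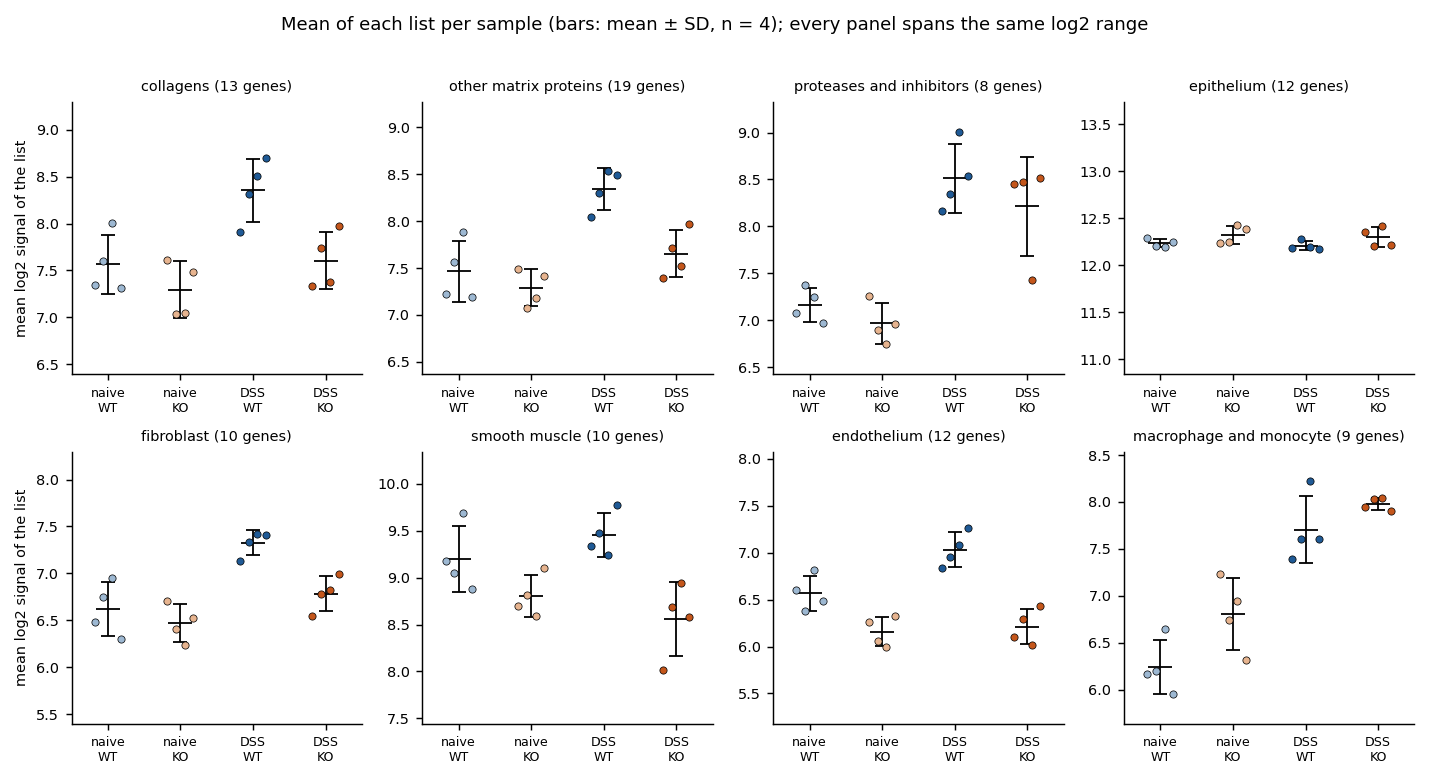
Mean log2 signal per sample of the 3 matrix classes (13 collagens, 19 other matrix proteins, 8 proteases and inhibitors) and of 5 marker lists (12 epithelial, 10 fibroblast, 10 smooth muscle, 12 endothelial, 9 macrophage and monocyte genes), with the same log2 span in every panel and the 4 groups side by side. The group means of the epithelial markers run from 12.21 to 12.32, and the collagens, other matrix proteins, fibroblast and endothelial markers each have their highest group mean in DSS_WT.

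Further matrix lists were counted beside the members. In DSS_KO against DSS_WT, where 3.17% of all tested probes fell and 2.46% rose, 4 of 10 probes of other collagens fell, 3 of 18 of laminins and basement membrane genes, 8 of 27 of other glycoproteins and proteoglycans, 3 of 23 of collagen folding and crosslinking genes (1 rose), 5 of 27 of other proteases and inhibitors (1 rose), 5 of 38 of matrix receptors and 1 of 19 of the TGF-beta family. The TGF-beta count is near the share over all probes. Called lower were Lama2 (a laminin chain of muscle and stroma, whose log2 signal dropped by 1.00, adjusted p 0.00043), Ltbp4 (which holds latent TGF-beta in the matrix, -1.29, adjusted p 0.00735) and a probe of the basement membrane chain Col4a5 that no DSS_KO array detected (at least 1.81-fold lower, adjusted p 0.0036). Mmp7 (matrilysin, an epithelial metalloproteinase) was called higher (1.57, adjusted p 0.00541), with 5.08, 4.67, 5.14 and 5.45 in DSS_WT, and 7.32, 6.40, 5.70 and 7.20 in DSS_KO, and the groups did not overlap. Its means of 5.09 in DSS_WT and 5.00 in Naive_KO were near the detection limit. The probe was detected on 4 DSS_WT arrays, 2 Naive_KO arrays and no Naive_WT array.

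With DSS in wild type, where 5.71% of all tested probes rose and 4.75% fell, risen probes were 3 of 10 of other collagens, 5 of 18 of laminins, 10 of 27 of other glycoproteins, 5 of 23 of folding and crosslinking genes, 6 of 27 of other proteases (4 fell), 6 of 38 of receptors (2 fell) and 5 of 19 of the TGF-beta family (3 fell). The fallen receptor probes are near the share over all probes. Called higher were Fstl1 (a secreted glycoprotein, 1.17, adjusted p 0.00212), Tgm2 (a crosslinking transglutaminase, 1.06, adjusted p 0.00798), Adamts2 (which trims procollagen, 1.38, adjusted p 0.000287), Ctsk (a collagen-degrading cathepsin, 1.25, adjusted p 0.00183), Tgfbr3 (a TGF-beta co-receptor, 1.06, adjusted p 0.00384), and 1 dimmer probe each of the laminin chain Lamc1 and of Tgfbi. A dimmer probe of Cyr61, a matricellular protein, was called lower. In Mbd2KO, Tgm2 (1.33, adjusted p 0.00223), Mmp7 (1.66, adjusted p 0.00227) and a Tgfbi probe were called higher with DSS, and Timp4, a metalloproteinase inhibitor, was called lower (-1.16, adjusted p 0.00711). Without DSS, 1 dimmer probe of the laminin receptor chain Itga6 was called lower in Mbd2KO.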

How the data were processed

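Total RNA of sorted colon epithelium was profiled on Illumina MouseWG-6 bead arrays, 18 arrays for 16 samples. The deposited table holds the authors' bead-averaged signal intensity per probe as exported by GenomeStudio, with a detection p-value from the negative controls and no normalisation, and lumi and limma are named as tools in the submitters' processing notes with no version given. The table has 45281 probes beside 974 control probes, of which 936 are negative controls. Its 54 further per-sample columns (bead counts, standard errors and the like) entered no test.

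Intensities were background-corrected on the negative controls, quantile-normalised and log2-transformed with neqc (limma 3.58.1, R 4.3.3, offset 16). The filter on detection (p under 0.05 on 4 arrays or more) left 21938 probes and removed 23343. The repeat arrays 4R and 5R were averaged with 4 and 5. Their log2 differences had an SD of 0.194 and 0.236, where arrays of different samples in those groups had 0.334 to 0.482 and 0.287 to 0.419. That an R marks a repeat of the same sample was read from the labels and these values.

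All 16 samples entered 1 limma model that held a mean for each group, with 12 residual degrees of freedom and 4.71 from the prior, and with 5 two-sided contrasts and Benjamini-Hochberg adjustment over all probes. The code was tested on simulated data. Values in every sample are given for members with a called probe and for the 4 members with the smallest p in each class, 17 genes in all. Members and lists were chosen with earlier results of these data known, so no test was run over a list. Promoter windows come from RefSeq (GRCm38.p6). Of the 43 members 29 had one, and the others were Loxl1, Mmp2, Col5a2, Mgp, Lama4, Lum, Eln, Col1a1, Col14a1, Lox, Dcn, Mfap5, Fn1 and Thbs1. The number of arrays limits the precision. Probe signals depend on the probe sequence, so levels of different genes were not compared. Probes of the same gene were ranked by signal only to pick the brightest and to name others dimmer.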

Additional observations from a re-analysis of the deposited data

Results flagged for a closer look

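Of 84 groups of 4 samples checked, 7 held a sample whose gap to the nearest other sample was, as a share of the group's whole range, above Dixon's critical value, which chance passes in about 5% of groups. In DSS_WT, Col6a2 was 6.99 in sample 1 where the others had 7.85 to 7.94, and Mmp3 was 8.37 in sample 3 where the others had 6.99 to 7.08. In DSS_KO, Mmp10 was 4.85 in sample 7 where the others had 7.16 to 7.35, and the mean log2 signal over the 8 proteases and inhibitors was 7.43 in that sample where the others had 8.45 to 8.51. DSS_KO sample 7 also had the fewest detected probes of all arrays, 18851, and 55 detected member probes where the other DSS_KO arrays had 60 to 63. Also in DSS_KO, Col6a2 was 6.16 in sample 5 (others 6.52 to 6.58) and Col8a1 was 6.45 in sample 8 (others 7.06 to 7.18). In Naive_WT, Timp1 was 5.05 in sample 12 where the others had 5.76 to 5.85. The part of array quality in these values was not tested.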

How the results depend on the processing

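Settings were changed one at a time, and no result past its threshold changed direction. Of the comparisons at single genes, 2045 kept their direction and side of the threshold, 21 lost the threshold and 14 gained it. Another 44 changed sign, in 15 results that passed an adjusted p of 0.05 in no setting. Without single samples their log2 differences ran, in DSS_KO against DSS_WT Mmp10 -0.39 to 0.45, Mmp13 -0.28 to 0.44 and Mmp3 -0.34 to 0.50, in the naive comparison Col18a1 -0.0594 to 0.20, Col5a1 -0.12 to 0.22, Col6a2 -0.19 to 0.14, Fbln1 -0.24 to 0.0773, Lum -0.29 to 0.0349, Mmp3 -0.0845 to 0.22 and Sparc -0.35 to 0.0386, with DSS in Mbd2KO Col6a2 -0.25 to 0.0802 and Tnc -0.0718 to 0.30, and in the interaction Mgp -0.27 to 0.28, Mmp3 -0.44 to 0.39 and Timp1 -0.27 to 0.16. The Mmp3 interaction was 0.0128 without background correction and 0.17 with 18 arrays. In DSS_KO against DSS_WT the 3 calls became 0 without background correction, 8 with scaling to a common median, 0 without the detection filter, 13 with the 18 arrays as separate replicates and 0 to 6 without single samples, and the 15 probes at an adjusted p under 0.05 became 28 with 18 arrays and 7 to 19 without single samples. In the naive comparison the 0 calls became 2 with probes detected on all arrays, 3 with 18 arrays, 1 with an intensity trend and robust prior and 0 to 4 without single samples, and the 4 probes became 0 with only the groups of the contrast and 3 to 5 without single samples. With DSS in wild type the 23 calls became 10 without background correction, 12 without the filter and 10 to 26 without single samples, the 44 probes became 29 to 49 without single samples, and the median difference of 0.88 became 0.56 and 0.58 without background correction and without the filter. With DSS in Mbd2KO the 8 calls became 3 without background correction, 5 without the filter, 5 with probes detected on all arrays, 5 with only the groups of the contrast and 4 to 12 without single samples, and the 14 probes became 6 with probes detected on all arrays and 11 to 17 without single samples. Without single samples the medians ran from -0.61 to -0.39 in DSS_KO against DSS_WT, from -0.25 to -0.02 in the naive comparison, from 0.77 to 1.04 with DSS in wild type and from 0.25 to 0.47 with DSS in Mbd2KO. The cause of these shifts was not tested, except that settings with fewer or more probes or arrays test other sets. The interaction had 0 member probes at an adjusted p under 0.05 in limma under every setting run. Col8a1 in the naive comparison passed an adjusted p of 0.05 in 22 of 26 settings, Lum in DSS_KO against DSS_WT in 19 of 26 and Mmp13 with DSS in Mbd2KO in 15 of 25. No paired analysis was possible because the labels number samples through all groups, with no shared number. The slide as a block was not run, since no chip is named in the table. The Mmp10 probe and 2 of the 3 Mmp3 probes, detected on no naive array, give only bounds against DSS arrays and no difference between the naive groups, so the naive difference and interaction of Mmp10 are left out.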
